A study of Saccharomyces cerevisiae with 12 samples.

Results

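Transcripts of 55 genes of meiosis and sporulation were followed in growing haploid yeast cells. The genes were taken by symbol from a list of meiotic recombination, sporulation and spore wall genes, which are normally kept repressed during growth, and all 55 were found among the 7112 annotated features of the count table. The study measured RNA of exponentially growing Saccharomyces cerevisiae cultures to ask how loss of Sis2 and the supply of potassium change expression. Sis2, also called Hal3, is a subunit that inhibits the phosphatase Ppz1. The 4 groups were *sis2*Δ cells (strain CGY41.34, MATa sis2d0::kanMX) in 0.5 mM KCl, *sis2*Δ cells in 7.35 mM KCl, WT cells (strain CGY41.30, MATa) in 0.5 mM KCl and WT cells in 7.35 mM KCl, with 3 biological replicates each. Both strains are prototrophic haploids, and each genotype was represented by 1 strain. All cultures grew in synthetic medium with glucose and were kept at a low cell density. For potassium titrations the paper names a custom potassium-free medium, with ammonium sulfate or arginine added as nitrogen source. Its RNAseq methods do not say which nitrogen source was used. Cells grew overnight in 7.35 mM KCl before the medium of each group was given.

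Meiosis and spore formation in yeast belong to MATa/MATalpha diploid cells that are starved of nitrogen on a nonfermentable carbon source. The transcription factor Ime1 starts the program and, with the kinase Ime2, turns on early genes, which hold the sequence URS1 in their promoters and are otherwise repressed by Ume6 bound there. Ndt80 then turns on middle genes through the middle sporulation element (MSE), a sequence that Sum1 occupies and represses in growing cells. Early genes make and repair the programmed DNA breaks of meiosis, and middle and later genes build the prospore membrane and the spore wall.

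Each library held between 35451323 and 46543107 counts. The deleted gene separated the strains: *SIS2* had 39.5 to 88.5 counts in the 6 *sis2*Δ libraries and 3119.5 to 3807.5 counts in the 6 WT libraries. The 7 MATa markers (pheromone, receptor and processing genes of MATa cells) summed to between 2118 and 3020 CPM (each library's counts scaled to a common total adjusted by its TMM factor) in all libraries, the 5 MATalpha markers to between 69.0 and 100.2 CPM, and 8 haploid-specific genes to between 646 and 717 CPM. No marker of either mating type was at 0 in any group. The sums of all 3 sets moved with potassium. That of the MATalpha markers was 93.4 to 100.2 CPM in *sis2*Δ at 0.5 mM KCl against 73.7 to 75.5 CPM at 7.35 mM KCl. In WT it was 96.1 to 98.2 CPM at 0.5 mM KCl against 69.0 to 72.0 CPM at 7.35 mM KCl. The MATa sum rose too, at 2467 to 2645 CPM against 2167 to 2305 CPM in *sis2*Δ and 2453 to 3020 CPM against 2118 to 2161 CPM in WT. The haploid-specific sum was lower at 0.5 mM KCl in both strains, without overlap. The gene of the alpha-factor pheromone, *MF(ALPHA)1*, averaged 2.65 CPM in *sis2*Δ at 0.5 mM KCl and 0.533 CPM at 7.35 mM KCl, and in WT 2.59 CPM at 0.5 mM KCl and 0.356 CPM at 7.35 mM KCl. The part of other cell types in the results that follow was not tested. In bulk RNA, more cells with a transcript and more transcript per cell cannot be told apart.

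The members were weakly expressed in all 4 groups. Together they took between 0.0393% and 0.0489% of a library's counts, and the median member had a mean of 215 counts per library. Levels between genes were compared as CPM per kb of coding length. The 54 members that passed the low-count filter had a median of 4.76 CPM per kb, against 32.3 CPM per kb over 5895 coding features, and 53 of the 54 lay below that median. A lower quartile of 15.0 CPM per kb over all coding features was above 51 of the 54. The 5 highest members were *SPR6* (47.2 CPM per kb), the prospore membrane gene *SPO73* (24.3 CPM per kb), the MAP kinase gene *SMK1* (21.9 CPM per kb), the break formation gene *REC114* (14.0 CPM per kb) and the mRNA methyltransferase gene *IME4* (12.8 CPM per kb). The counts of *IME4* may hold reads of *RME2*, a noncoding RNA on the opposite strand. *SPR6*, a sporulation gene of unknown function, was alone above the median of all coding features. The 5 lowest were the spore wall gene *OSW1* (0.135 CPM per kb), the chitin deacetylase gene *CDA2* (0.306 CPM per kb), *SPO19* (0.400 CPM per kb), the septin gene *SPR3* (0.957 CPM per kb) and the spore wall gene *SPS22* (1.20 CPM per kb). *OSW1*, with 1.33 to 7.33 counts per library, was the 1 member that failed the filter and it entered no test. *CDA1* and *CDA2*, and likewise *SPS2* and *SPS22*, are pairs of related genes, so reads of one may have been counted for the other where their sequences agree.

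Summed over the members, expression was highest in *sis2*Δ at 0.5 mM KCl. The sum was 484, 474 and 478 CPM in *sis2*Δ at 0.5 mM KCl against 407, 399 and 404 CPM in *sis2*Δ at 7.35 mM KCl, and 453, 451 and 442 CPM in WT at 0.5 mM KCl against 408, 408 and 405 CPM in WT at 7.35 mM KCl. The groups at 0.5 mM KCl did not overlap those at 7.35 mM KCl in either strain, and *sis2*Δ lay above WT at 0.5 mM KCl without overlap, while the strains overlapped at 7.35 mM KCl.

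The promoters of the members were read for both control sequences. The window ran from 250 bases before to 50 bases after the annotated start codon in the R64 genome of RefSeq, on both strands, and all 55 members matched an annotated gene. The core of URS1 (GGCGGC) was in 16 of 55 members, or 29.1%, against 5.13% of 6001 promoters of all coding genes, and the longer form GGCGGCTA in 13 members, or 23.6%, against 1.17%. The core of the MSE (CACAAA) was in 27 members, or 49.1%, against 18.8% of all promoters, and the longer form GNCACAAA, which contains the core, in 17 members, or 30.9%, against 4.32%. URS1 stood before genes of break formation (3 of 5), strand exchange (4 of 5), the chromosome axis (3 of 4) and synapsis (3 of 6), in 1 of 14 genes of division and the prospore membrane and in 0 of 11 spore wall genes. The MSE stood before 11 of 14 genes of division and the prospore membrane, 5 of 6 spore kinases and other sporulation genes and 7 of 11 spore wall genes, and before 0 of 5 genes of break formation and 0 of 5 of strand exchange. A match to these letters is a description and does not show that a factor binds there.

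**Figure D1:**
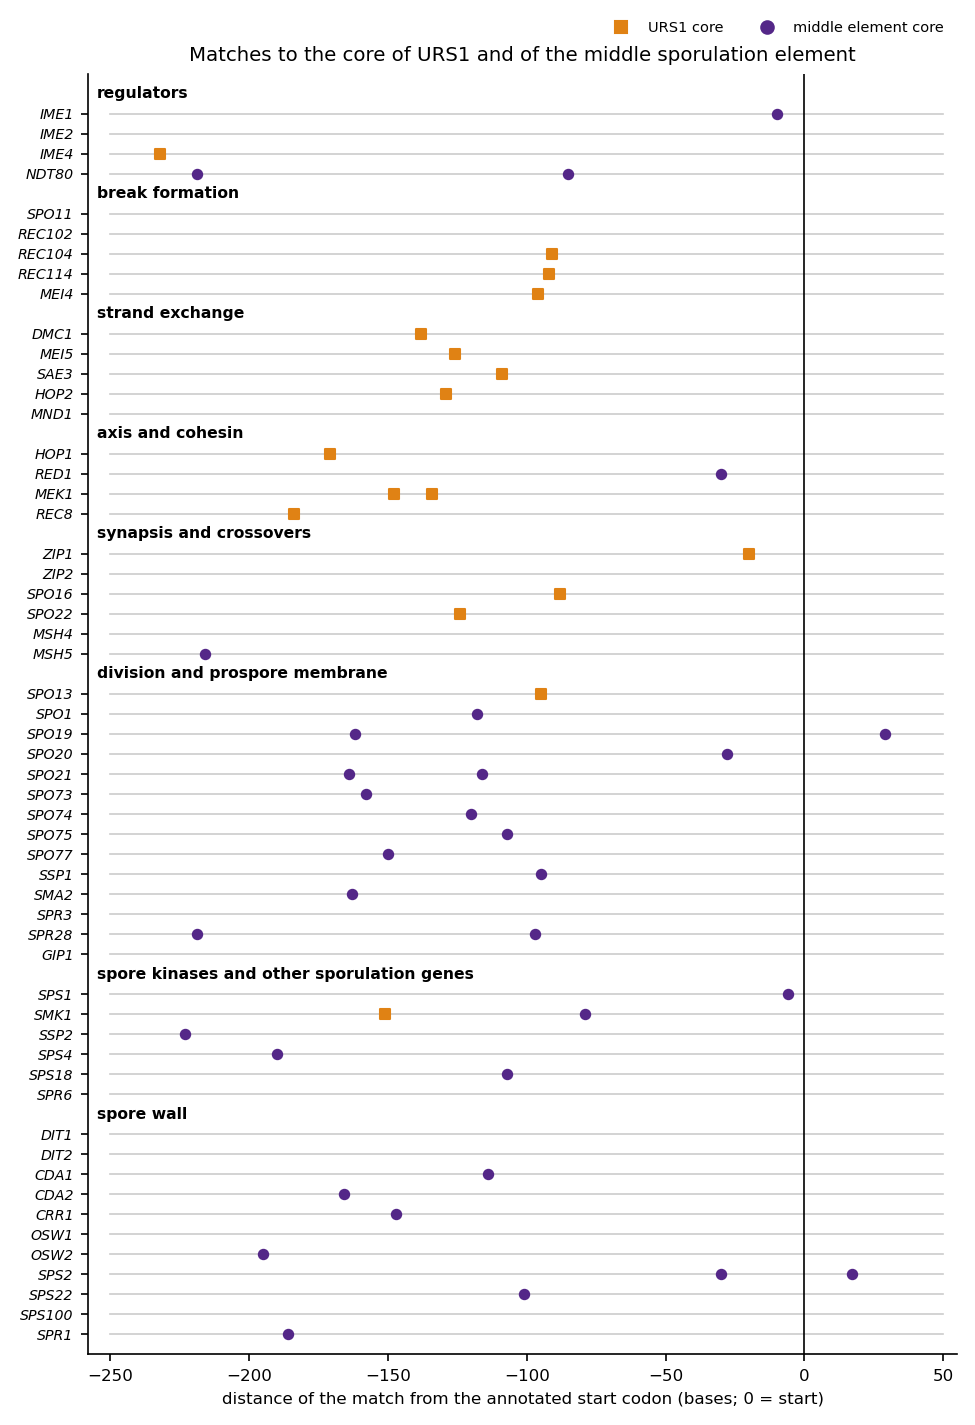
Positions of matches to the URS1 core (squares) and the MSE core (circles) in the promoters of the 55 members, by class; the horizontal axis is the distance from the annotated start codon in bases. URS1 matches lie mostly in the recombination, axis and synapsis classes, with single ones at *IME4*, *SPO13* and *SMK1*, and MSE matches mostly in the spore classes.

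The 200 bases from 250 to 51 bases before the start codon are shown for 8 members that differ in their response to potassium, in lower case with matches to the letters above in capitals, as read on the gene's own strand; a match on the other strand is printed as its reverse complement. *REC8*, *DMC1* and *SPO13* hold a URS1 core and were higher in 0.5 mM KCl in both strains, while *MEK1* holds 2 and was lower in *sis2*Δ. *SPR28*, *SPS22* and *CDA1* hold an MSE core and were higher in 0.5 mM KCl in both strains, while *SPS18* holds one and was lower in WT.
REC8 (chrXVI:571429-571628, minus strand): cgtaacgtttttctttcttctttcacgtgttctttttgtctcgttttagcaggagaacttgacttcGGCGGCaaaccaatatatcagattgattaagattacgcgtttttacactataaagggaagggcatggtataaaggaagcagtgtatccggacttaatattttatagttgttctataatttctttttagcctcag
DMC1 (chrV:548171-548370, plus strand): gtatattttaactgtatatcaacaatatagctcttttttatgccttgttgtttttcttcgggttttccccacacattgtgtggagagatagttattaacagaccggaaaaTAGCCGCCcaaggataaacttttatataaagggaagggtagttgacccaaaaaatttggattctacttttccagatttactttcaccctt
SPO13 (chrVIII:131797-131996, plus strand): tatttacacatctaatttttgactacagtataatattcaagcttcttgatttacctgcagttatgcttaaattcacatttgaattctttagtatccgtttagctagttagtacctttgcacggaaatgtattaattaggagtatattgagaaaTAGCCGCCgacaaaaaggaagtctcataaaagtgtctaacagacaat
MEK1 (chrXV:996562-996761, minus strand): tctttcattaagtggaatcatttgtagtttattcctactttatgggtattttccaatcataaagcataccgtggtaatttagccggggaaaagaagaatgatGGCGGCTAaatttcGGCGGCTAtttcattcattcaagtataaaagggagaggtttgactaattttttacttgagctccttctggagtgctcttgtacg
SPR28 (chrIV:905103-905302, minus strand): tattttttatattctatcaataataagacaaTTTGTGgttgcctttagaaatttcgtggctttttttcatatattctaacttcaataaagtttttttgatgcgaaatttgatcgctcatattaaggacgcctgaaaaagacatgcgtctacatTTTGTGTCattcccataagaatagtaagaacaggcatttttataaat
SPS22 (chrIII:41915-42114, plus strand): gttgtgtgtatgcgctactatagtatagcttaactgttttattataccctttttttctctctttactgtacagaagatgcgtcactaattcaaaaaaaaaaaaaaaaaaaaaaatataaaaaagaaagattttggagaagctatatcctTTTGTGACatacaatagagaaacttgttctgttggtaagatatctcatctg
CDA1 (chrXII:745370-745569, plus strand): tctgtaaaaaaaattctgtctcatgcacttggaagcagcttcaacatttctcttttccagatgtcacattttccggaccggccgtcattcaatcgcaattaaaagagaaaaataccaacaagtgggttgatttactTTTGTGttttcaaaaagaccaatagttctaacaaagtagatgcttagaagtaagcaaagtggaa
SPS18 (chrXIV:259328-259527, minus strand): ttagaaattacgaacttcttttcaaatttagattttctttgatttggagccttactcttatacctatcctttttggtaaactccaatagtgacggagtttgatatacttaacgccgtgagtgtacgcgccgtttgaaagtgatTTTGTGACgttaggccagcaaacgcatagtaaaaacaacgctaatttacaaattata

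The capitals, which take in the longer form where it is present, begin 184 bases before the start codon in *REC8*, 140 in *DMC1* and 97 in *SPO13*, and at 148 and 134 bases in *MEK1*. In *SPR28* they begin at 219 and 97 bases, in *SPS22* at 101 bases, in *CDA1* at 114 bases and in *SPS18* at 107 bases. Both sequences stood before members with and without the response to potassium described next: among the 17 members higher in 0.5 mM KCl in both strains 4 held the URS1 core and 6 the MSE core, and among the other 37 members tested 12 held the URS1 core and 21 the MSE core.

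Low potassium raised more members than it lowered in both strains. In *sis2*Δ, 28 of 54 members were higher in 0.5 than in 7.35 mM KCl and 1 was lower, at an adjusted p under 0.05 in the quasi-likelihood test of edgeR, corrected by the Benjamini-Hochberg method across 6691 features. Over all features 45.9% changed in *sis2*Δ, 24.2% higher and 21.7% lower, so the share of members that changed (53.7%) was near the background. Of the calls, 28 of 29 members were higher, against 1620 of 3073 features. In WT, 18 members were higher and 5 lower, where 47.3% of all features changed, 24.1% higher and 23.2% lower. The share of WT members called (42.6%) was likewise near the background, and 18 of 23 members called were higher, against 1612 of 3165 features. The median log2 fold change of the members was 0.26 in *sis2*Δ and 0.15 in WT, against 0.0023 and -0.0012 over all features. The 3 libraries per concentration did not overlap for 36 of 54 members in *sis2*Δ and 31 of 54 in WT, against 3534 and 3767 of 6691 features. These comparisons share no library. Of the members, 17 were higher in both, which is 60.7% of the 28 in *sis2*Δ and 94.4% of the 18 in WT; over all features 1213 were higher in both, 74.9% of those in *sis2*Δ and 75.2% of those in WT.

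**Figure D2:**
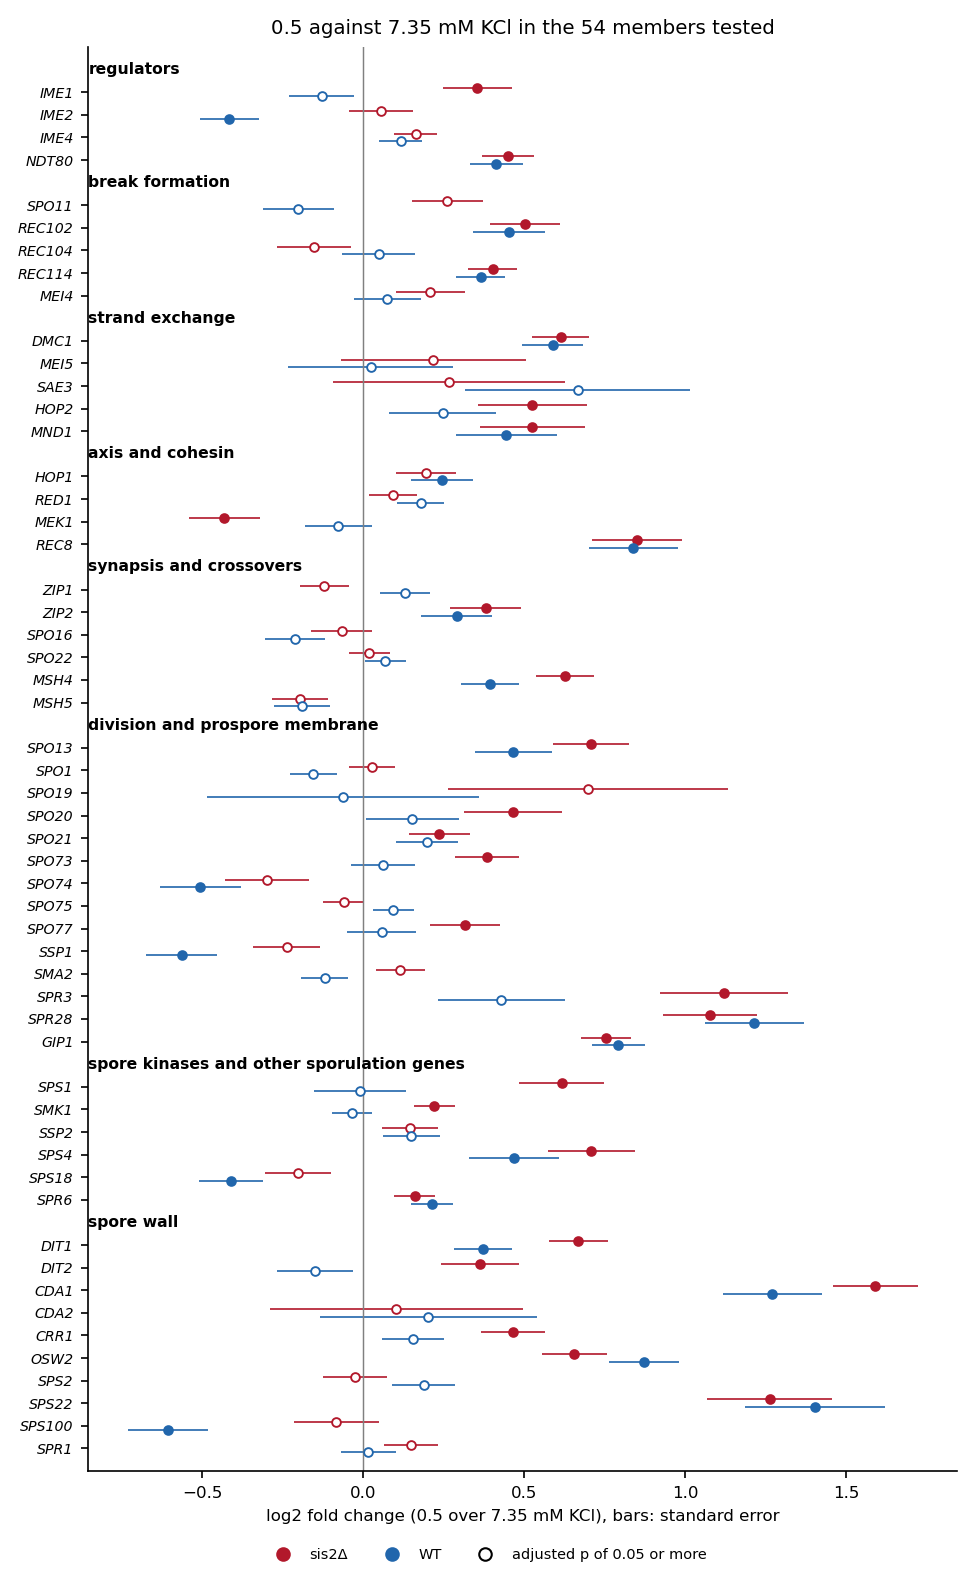
Log2 fold change of 0.5 over 7.35 mM KCl (horizontal axis) of the 54 members tested, by class, in *sis2*Δ (red) and WT (blue); bars are standard errors and open points did not pass the threshold. In *sis2*Δ 28 filled points lie right of 0 and 1 left of it, and in WT 18 lie right and 5 left.

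Among the genes of meiotic recombination, *REC8* had the largest change that passed the test in each strain. *REC8*, the meiotic subunit of cohesin, had 4.09, 3.64 and 4.97 CPM at 0.5 mM KCl against 2.697, 1.83 and 2.48 CPM at 7.35 mM KCl in *sis2*Δ, a log2 fold change of 0.85 ± 0.14 (SE), edgeR adjusted p = 4.04e-05. In WT it had 4.09, 4.44 and 3.93 CPM at 0.5 mM KCl against 2.41, 2.12 and 2.38 CPM at 7.35 mM KCl (0.84 ± 0.14 (SE), edgeR adjusted p = 4.13e-05). All 6 libraries at 0.5 mM KCl were above all 6 at 7.35 mM KCl. *DMC1*, the meiotic recombinase, had 13.5, 12.5 and 13.9 CPM at 0.5 mM KCl against 9.32, 8.36 and 8.36 CPM at 7.35 mM KCl in *sis2*Δ (0.61 ± 0.089 (SE), edgeR adjusted p = 1.04e-05). WT cells held 10.9, 9.60 and 9.55 CPM at 0.5 mM KCl against 7.47, 5.81 and 6.66 CPM at 7.35 mM KCl (0.59 ± 0.094 (SE), edgeR adjusted p = 2.74e-05). The change was of like size in both strains, with *sis2*Δ at the higher level at each concentration. The break formation genes *REC102* and *REC114*, whose products assist Spo11 in cutting DNA, rose by 0.50 and 0.40 in *sis2*Δ and by 0.45 and 0.36 in WT. *SPO11* itself, *REC104* and *MEI4* did not pass in either strain. *MSH4*, which acts with Msh5 at crossovers, had 7.49, 7.35 and 7.46 CPM at 0.5 mM KCl against 4.68, 4.93 and 4.87 CPM at 7.35 mM KCl in *sis2*Δ (0.63 ± 0.089 (SE), edgeR adjusted p = 8.12e-06). The WT cultures had 6.07, 6.52 and 7.01 CPM at 0.5 mM KCl against 5.41, 4.71 and 4.76 CPM at 7.35 mM KCl (0.39 ± 0.09 (SE), edgeR adjusted p = 0.00106). Its partner *MSH5* did not pass, at -0.19 in *sis2*Δ and -0.19 in WT.

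Spore wall genes gave the largest changes of all members. *CDA1*, a chitin deacetylase that makes the chitosan layer of the spore wall, had 5.60, 4.91 and 6.98 CPM at 0.5 mM KCl against 2.01, 2.01 and 1.84 CPM at 7.35 mM KCl in *sis2*Δ (1.59 ± 0.13 (SE), edgeR adjusted p = 3.24e-09). Its WT libraries had 3.29, 3.47 and 2.95 CPM at 0.5 mM KCl against 1.37, 1.19 and 1.45 CPM at 7.35 mM KCl (1.27 ± 0.15 (SE), edgeR adjusted p = 7.07e-07). All libraries at 0.5 mM KCl lay above all libraries at 7.35 mM KCl, and *sis2*Δ lay above WT at each concentration without overlap. *SPS22*, needed for the glucan layer, had 2.86, 1.91 and 3.25 CPM at 0.5 mM KCl against 1.35, 1.03 and 0.933 CPM at 7.35 mM KCl in *sis2*Δ (1.26 ± 0.19 (SE), edgeR adjusted p = 2.03e-05). In WT the gene had 1.90, 2.26 and 2.16 CPM at 0.5 mM KCl against 0.621, 1.01 and 0.770 CPM at 7.35 mM KCl (1.40 ± 0.22 (SE), edgeR adjusted p = 1.88e-05). These levels are near the bottom of the set, and the strains overlapped at both concentrations. *OSW2*, an outer spore wall gene, had 11.0, 9.76 and 10.9 CPM at 0.5 mM KCl against 6.59, 7.26 and 6.20 CPM at 7.35 mM KCl in *sis2*Δ (0.66 ± 0.10 (SE), edgeR adjusted p = 1.94e-05). In WT it had 9.05, 8.999 and 7.19 CPM at 0.5 mM KCl against 5.17, 4.13 and 4.43 CPM at 7.35 mM KCl (0.87 ± 0.11 (SE), edgeR adjusted p = 9.39e-07). *DIT1*, the first enzyme of dityrosine synthesis, had 10.2, 8.59 and 10.0 CPM at 0.5 mM KCl against 6.07, 6.61 and 5.47 CPM at 7.35 mM KCl in *sis2*Δ (0.67 ± 0.092 (SE), edgeR adjusted p = 5.57e-06). WT cells held 9.37, 9.04 and 10.2 CPM at 0.5 mM KCl against 7.73, 7.15 and 7.25 CPM at 7.35 mM KCl (0.37 ± 0.089 (SE), edgeR adjusted p = 0.00172). For both genes the concentrations did not overlap in either strain. *CRR1*, a glycosidase of the spore wall, passed in *sis2*Δ (0.47 ± 0.10 (SE), edgeR adjusted p = 0.000644) and not in WT (0.15 ± 0.10 (SE), edgeR adjusted p = 0.202). *CDA2*, *SPS2* and *SPR1* did not pass in either strain.

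**Figure D3:**
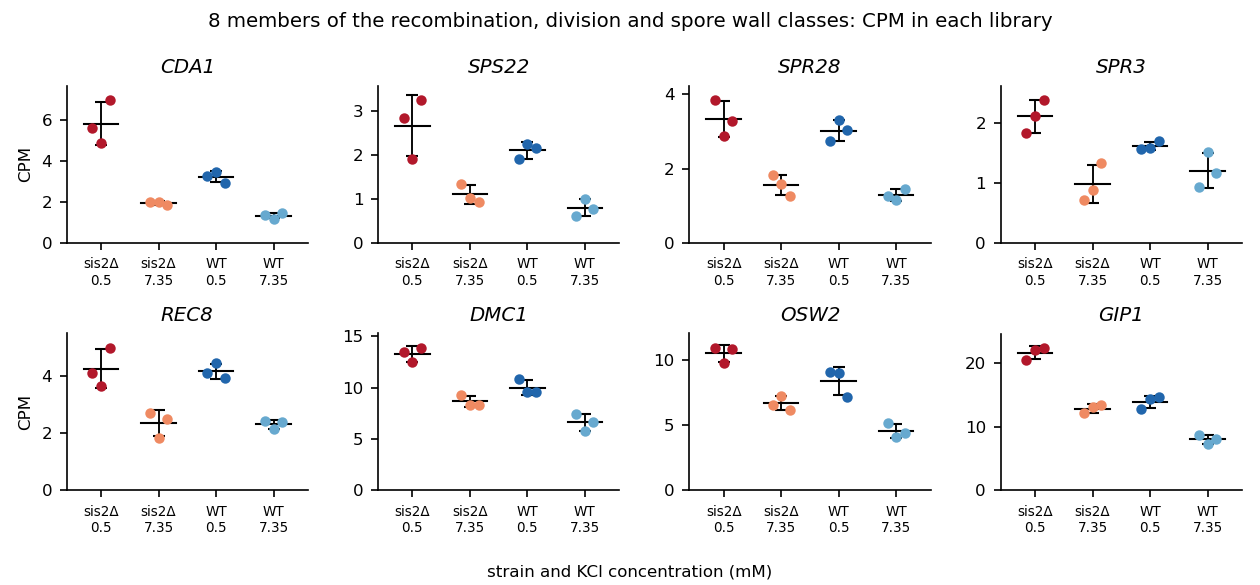
CPM (vertical axis, from 0) of 8 members in each library, with *sis2*Δ at 0.5 and 7.35 mM KCl left of WT at 0.5 and 7.35 mM KCl; points are libraries, lines and bars the mean and SD of 3. For all 8 genes no library at 7.35 mM KCl reaches any at 0.5 mM KCl of the same strain.

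The genes of meiotic division and the prospore membrane, the membrane that encloses each spore, included both sporulation septins. *SPR28* had 3.84, 2.88 and 3.29 CPM at 0.5 mM KCl against 1.82, 1.59 and 1.27 CPM at 7.35 mM KCl in *sis2*Δ (1.08 ± 0.15 (SE), edgeR adjusted p = 4.69e-06). The WT cultures had 2.73, 3.30 and 3.03 CPM at 0.5 mM KCl against 1.27, 1.15 and 1.45 CPM at 7.35 mM KCl (1.21 ± 0.15 (SE), edgeR adjusted p = 1.37e-06). The septin *SPR3* had 1.83, 2.11 and 2.37 CPM at 0.5 mM KCl against 0.719, 0.873 and 1.33 CPM at 7.35 mM KCl in *sis2*Δ (1.12 ± 0.20 (SE), edgeR adjusted p = 9.94e-05). Its WT libraries had 1.56, 1.58 and 1.70 CPM at 0.5 mM KCl against 0.937, 1.50 and 1.17 CPM at 7.35 mM KCl and did not pass (0.43 ± 0.20 (SE), edgeR adjusted p = 0.08), though every WT library at 0.5 mM KCl was above every one at 7.35 mM KCl. *GIP1*, which directs the phosphatase Glc7 to septins during sporulation, had 20.4, 21.97 and 22.4 CPM at 0.5 mM KCl against 12.1, 13.1 and 13.3 CPM at 7.35 mM KCl in *sis2*Δ (0.75 ± 0.077 (SE), edgeR adjusted p = 7.94e-08). In WT the gene had 12.7, 14.3 and 14.6 CPM at 0.5 mM KCl against 8.74, 7.21 and 8.00 CPM at 7.35 mM KCl (0.79 ± 0.083 (SE), edgeR adjusted p = 9.60e-08). *GIP1* had the smallest adjusted p of the members in WT. *SPO13*, which acts on chromosome attachment in the first meiotic division, had 7.29, 5.997 and 7.52 CPM at 0.5 mM KCl against 3.75, 4.98 and 4.09 CPM at 7.35 mM KCl in *sis2*Δ (0.71 ± 0.12 (SE), edgeR adjusted p = 4.90e-05). In WT it had 6.42, 6.10 and 5.46 CPM at 0.5 mM KCl against 4.52, 4.66 and 3.81 CPM at 7.35 mM KCl (0.47 ± 0.12 (SE), edgeR adjusted p = 0.0027). *SPO73*, which extends the prospore membrane, passed in *sis2*Δ (0.38 ± 0.10 (SE), edgeR adjusted p = 0.00325) and not in WT (0.062 ± 0.10 (SE), edgeR adjusted p = 0.634). Of the 14 genes in this class, 8 rose and 0 fell in *sis2*Δ, and 3 rose and 2 fell in WT. Of all features 24.2% were higher and 21.7% lower in *sis2*Δ, and 24.1% higher and 23.2% lower in WT. The 5 of 14 called in WT, or 35.7%, were below the 47.3% of all features called.

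Among the spore kinases and other sporulation genes, *SPS4* had 6.93, 6.33 and 7.69 CPM at 0.5 mM KCl against 3.17, 4.27 and 5.52 CPM at 7.35 mM KCl in *sis2*Δ (0.71 ± 0.14 (SE), edgeR adjusted p = 0.00023). WT cells held 5.17, 5.92 and 5.80 CPM at 0.5 mM KCl against 3.99, 4.26 and 3.96 CPM at 7.35 mM KCl (0.47 ± 0.14 (SE), edgeR adjusted p = 0.00864). *SPS1*, a kinase of spore formation, had 3.99, 3.14 and 3.84 CPM at 0.5 mM KCl against 2.17, 2.18 and 2.87 CPM at 7.35 mM KCl in *sis2*Δ (0.62 ± 0.13 (SE), edgeR adjusted p = 0.000706). *SPS1* had 2.19, 2.58 and 2.19 CPM at 0.5 mM KCl against 2.35, 2.15 and 2.50 CPM at 7.35 mM KCl in WT (-0.0095 ± 0.14 (SE), edgeR adjusted p = 0.964). Its WT values overlapped, and the *sis2*Δ cells at 0.5 mM KCl stood above the other 3 groups. *SMK1*, the MAP kinase of spore wall assembly, passed in *sis2*Δ (0.22 ± 0.063 (SE), edgeR adjusted p = 0.00653) and not in WT (-0.036 ± 0.062 (SE), edgeR adjusted p = 0.665).

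A smaller set fell in low potassium. In *sis2*Δ this was *MEK1*, and in WT these were *SPS100*, *SSP1*, *SPO74*, *SPS18* and the regulator *IME2*. *SPS100*, a protein of the spore wall, had 4.49, 3.53 and 4.04 CPM at 0.5 mM KCl against 4.30, 4.66 and 3.82 CPM at 7.35 mM KCl in *sis2*Δ (-0.083 ± 0.13 (SE), edgeR adjusted p = 0.636). *SPS100* had 5.02, 3.92 and 3.37 CPM at 0.5 mM KCl against 6.73, 6.20 and 5.78 CPM at 7.35 mM KCl in WT (-0.61 ± 0.12 (SE), edgeR adjusted p = 0.000407). The 3 WT libraries at 7.35 mM KCl were above the other 9. *SSP1*, which shapes the leading edge of the prospore membrane, had 3.99, 4.51 and 3.96 CPM at 0.5 mM KCl against 4.91, 4.53 and 5.18 CPM at 7.35 mM KCl in *sis2*Δ (-0.24 ± 0.10 (SE), edgeR adjusted p = 0.0678). *SSP1* had 2.87, 3.29 and 3.03 CPM at 0.5 mM KCl against 4.33, 4.21 and 5.06 CPM at 7.35 mM KCl in WT (-0.56 ± 0.11 (SE), edgeR adjusted p = 0.000244). *SPO74*, a protein of the meiotic spindle pole body, had a log2 fold change of -0.30 ± 0.13 (SE), edgeR adjusted p = 0.0663, in *sis2*Δ. In WT *SPO74* had 2.36, 2.77 and 2.96 CPM at 0.5 mM KCl against 3.45, 3.88 and 4.16 CPM at 7.35 mM KCl (-0.51 ± 0.13 (SE), edgeR adjusted p = 0.00227). *SPS18* was at -0.20 ± 0.10 (SE), edgeR adjusted p = 0.115, in *sis2*Δ, and in WT had 4.43, 4.74 and 4.08 CPM at 0.5 mM KCl against 5.90, 5.54 and 6.16 CPM at 7.35 mM KCl (-0.41 ± 0.10 (SE), edgeR adjusted p = 0.00196). *MEK1*, the kinase that steers meiotic repair to the homologous chromosome, had 2.54, 2.71 and 2.88 CPM at 0.5 mM KCl against 4.06, 3.30 and 3.56 CPM at 7.35 mM KCl in *sis2*Δ (-0.43 ± 0.11 (SE), edgeR adjusted p = 0.00299). *MEK1* had 3.50, 3.46 and 3.61 CPM at 0.5 mM KCl against 3.70, 3.66 and 3.78 CPM at 7.35 mM KCl in WT (-0.077 ± 0.10 (SE), edgeR adjusted p = 0.57). All 6 fell in 1 strain past the threshold and had no call in the other, and none passed the test of the difference between strains.

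Some calls in the potassium comparisons were smaller and were lost when single libraries were left out. In WT, *SPR6* (0.21) was lost without WT 0.5 mM replicate 2 (log2 0.18), and the strand exchange gene *MND1* (0.45) without WT 0.5 mM replicate 2 or WT 7.35 mM replicate 1 or 2 (log2 0.37 to 0.45). *ZIP2* (0.29), a gene of synapsis initiation, was lost without WT 0.5 mM replicate 1 or 2 or WT 7.35 mM replicate 1, 2 or 3 (log2 0.25 to 0.31), and the axis gene *HOP1* (0.25) without WT 0.5 mM replicate 3 or WT 7.35 mM replicate 1 or 3 (log2 0.14 to 0.26). In *sis2*Δ, the dityrosine gene *DIT2* (0.36) was lost without *sis2*Δ 0.5 mM replicate 2 or 3 or *sis2*Δ 7.35 mM replicate 2 (log2 0.28 to 0.35). *SPR6* (0.16) was lost in 8 of 12 leave-one-out fits (log2 0.089 to 0.17), all but those without *sis2*Δ 0.5 mM replicate 2 or 3, WT 0.5 mM replicate 1 or WT 7.35 mM replicate 3. *HOP2* (0.53), the partner of Mnd1, was lost without *sis2*Δ 0.5 mM replicate 2 or 3 or *sis2*Δ 7.35 mM replicate 1 (log2 0.41 to 0.45), and it was the 1 call whose concentrations overlapped. *MND1* (0.52) was lost without *sis2*Δ 7.35 mM replicate 2 (log2 0.45), and *ZIP2* (0.38) without *sis2*Δ 7.35 mM replicate 3 (log2 0.28). The prospore membrane genes *SPO77* (0.32) and *SPO20* (0.47) were lost without *sis2*Δ 0.5 mM replicate 3 or *sis2*Δ 7.35 mM replicate 2 (log2 0.20 to 0.24) and without *sis2*Δ 0.5 mM replicate 2 or *sis2*Δ 7.35 mM replicate 1 (log2 0.35 to 0.41). *SPO21* (0.24), of the meiotic spindle pole body, was lost in 10 of 12 leave-one-out fits (log2 0.13 to 0.25), all but those without *sis2*Δ 0.5 mM replicate 3 or WT 0.5 mM replicate 1. Several of these calls also did not pass by DESeq2. They were *MND1* (adjusted p = 0.0846), *ZIP2* (0.0596) and *HOP1* (0.0556) in WT, and *MND1* (0.0504), *SPR6* (0.0796) and *SPO21* (0.0859) in *sis2*Δ. *MND1*, *ZIP2* and *SPR6* are among the 17 members counted as higher in both strains. The other 21 of 29 calls in *sis2*Δ and 19 of 23 in WT stood without any 1 library and under every other setting tried.

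The calls of the 4 regulators differed. *NDT80*, the activator of middle genes, had 24.3, 22.01 and 21.98 CPM at 0.5 mM KCl against 17.8, 17.4 and 14.7 CPM at 7.35 mM KCl in *sis2*Δ (0.45 ± 0.081 (SE), edgeR adjusted p = 0.000116). The WT cultures had 21.4, 19.3 and 19.3 CPM at 0.5 mM KCl against 16.4, 15.0 and 13.7 CPM at 7.35 mM KCl (0.41 ± 0.082 (SE), edgeR adjusted p = 0.000292). The concentrations did not overlap in either strain. *IME1*, the activator that starts meiosis, had 7.82, 7.87 and 6.63 CPM at 0.5 mM KCl against 5.73, 5.50 and 6.18 CPM at 7.35 mM KCl in *sis2*Δ (0.35 ± 0.11 (SE), edgeR adjusted p = 0.0101). Its WT libraries had 6.85, 6.92 and 8.65 CPM at 0.5 mM KCl against 7.42, 8.26 and 8.90 CPM at 7.35 mM KCl (-0.13 ± 0.10 (SE), edgeR adjusted p = 0.315). *IME1* thus passed in *sis2*Δ and not in WT, where the values overlapped. *IME2*, the meiotic kinase that *IME1* turns on, had 5.85, 5.65 and 5.35 CPM at 0.5 mM KCl against 5.86, 5.54 and 4.74 CPM at 7.35 mM KCl in *sis2*Δ (0.056 ± 0.10 (SE), edgeR adjusted p = 0.67). In WT the gene had 5.90, 6.29 and 5.995 CPM at 0.5 mM KCl against 8.09, 8.79 and 7.34 CPM at 7.35 mM KCl (-0.42 ± 0.093 (SE), edgeR adjusted p = 0.00094). WT cells at 7.35 mM KCl thus held more *IME2* than each of the other 3 groups, without overlap. *IME4*, which methylates mRNA in meiosis, had 25.0, 25.4 and 22.7 CPM at 0.5 mM KCl against 22.4, 21.98 and 20.9 CPM at 7.35 mM KCl in *sis2*Δ (0.16 ± 0.067 (SE), edgeR adjusted p = 0.0531), and in WT 26.3, 22.7 and 23.4 CPM at 0.5 mM KCl against 22.9, 22.4 and 21.4 CPM at 7.35 mM KCl (0.12 ± 0.067 (SE), edgeR adjusted p = 0.162). *IME4* passed in *sis2*Δ with a replicate block (0.16, edgeR adjusted p = 0.0290), that is with the batch number of the labels as a further term, with a minimum of 10 counts in every library (0.17, edgeR adjusted p = 0.0491), and without *sis2*Δ 0.5 mM replicate 3 (0.21) or WT 0.5 mM replicate 1 (0.16).

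**Figure D4:**
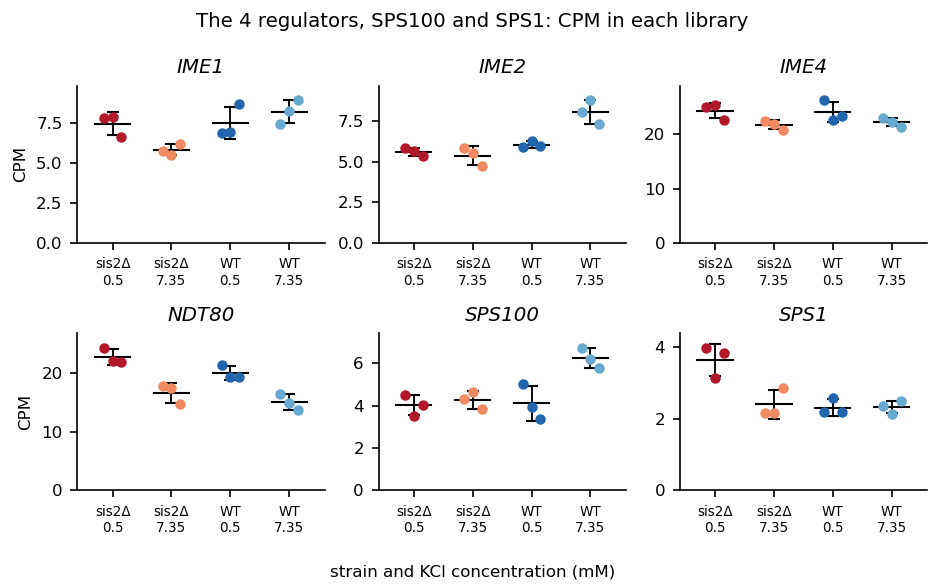
CPM (vertical axis, from 0) of the 4 regulators, *SPS100* and *SPS1* in each library, with *sis2*Δ at 0.5 and 7.35 mM KCl left of WT at 0.5 and 7.35 mM KCl; points are libraries, lines and bars the mean and SD of 3. *IME2* and *SPS100* are highest in WT at 7.35 mM KCl and *SPS1* in *sis2*Δ at 0.5 mM KCl.

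Loss of Sis2 changed fewer members than potassium did, and it also changed fewer of all features. At 7.35 mM KCl, 5 of 54 members were higher and 6 lower in *sis2*Δ than in WT, or 20.4%, where 13.4% of all features changed, 6.38% higher and 7.04% lower. The median log2 fold change was -0.032 over the members and -0.00033 over all features, and the strains did not overlap for 20 members and for 2152 of 6691 features. At 0.5 mM KCl, 5 members were higher and 0 lower, or 9.26%, where 1.78% of all features changed, 1.2% higher and 0.583% lower. The median was 0.083 over the members and 0.0010 over all features, and the strains did not overlap for 19 members and for 1124 features. The strain comparison at 7.35 mM KCl shares its WT libraries with the potassium comparison in WT, and the same holds for the other groups. The counts of members moved with single libraries. At 7.35 mM KCl 7 members passed without *sis2*Δ 7.35 mM replicate 3 and 6 without WT 7.35 mM replicate 2. At 0.5 mM KCl 2 passed without *sis2*Δ 0.5 mM replicate 1 or 3, and 3 without WT 0.5 mM replicate 1, 2 or 3. Over all features the count of 898 at 7.35 mM KCl was 488 to 596 without *sis2*Δ 7.35 mM replicate 2 or 3 or WT 7.35 mM replicate 1 or 2, and the count of 119 at 0.5 mM KCl was 440 without *sis2*Δ 0.5 mM replicate 2 and 54 to 61 without *sis2*Δ 0.5 mM replicate 1 or 3 or WT 0.5 mM replicate 1.

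*GIP1*, *DMC1* and *CDA1* were higher in *sis2*Δ at both concentrations, by the values per library given above. *GIP1* was higher by 0.64 ± 0.076 (SE), edgeR adjusted p = 1.73e-05, at 0.5 mM KCl and by 0.68 ± 0.083 (SE), edgeR adjusted p = 1.14e-05, at 7.35 mM KCl, and held its call without any 1 library. *CDA1* was higher by 0.86 ± 0.12 (SE), edgeR adjusted p = 0.000171, at 0.5 mM KCl and by 0.54 ± 0.17 (SE), edgeR adjusted p = 0.0357, at 7.35 mM KCl, where the call was lost without *sis2*Δ 7.35 mM replicate 1, 2 or 3 or WT 7.35 mM replicate 1 or 2 (log2 0.47 to 0.59). *DMC1* was higher by 0.41 ± 0.088 (SE), edgeR adjusted p = 0.0143, at 0.5 mM KCl, lost without *sis2*Δ 0.5 mM replicate 1 or 3 or WT 0.5 mM replicate 2 or 3 (log2 0.38 to 0.40). At 7.35 mM KCl *DMC1* was higher by 0.39 ± 0.10 (SE), edgeR adjusted p = 0.00964, lost without WT 7.35 mM replicate 2 (log2 0.31). *OSW2* was higher at 7.35 mM KCl (0.54 ± 0.11 (SE), edgeR adjusted p = 0.00215), with 0.33 and an adjusted p of 0.108 by edgeR at 0.5 mM KCl. The synaptonemal complex gene *ZIP1* had 16.4, 15.8 and 16.5 CPM in *sis2*Δ against 12.8, 13.3 and 15.3 CPM in WT at 7.35 mM KCl (0.23 ± 0.076 (SE), edgeR adjusted p = 0.0453), lost without *sis2*Δ 7.35 mM replicate 1, 2 or 3, WT 0.5 mM replicate 2 or WT 7.35 mM replicate 1 or 2 (log2 0.19 to 0.26). At 0.5 mM KCl *SPS1* was higher in *sis2*Δ (0.66 ± 0.13 (SE), edgeR adjusted p = 0.0093), a call lost without *sis2*Δ 0.5 mM replicate 1 or 3 or WT 0.5 mM replicate 1 (log2 0.61 to 0.63). *SSP1* was higher by 0.44 ± 0.11 (SE), edgeR adjusted p = 0.0491, at 0.5 mM KCl, lost in 11 of 12 leave-one-out fits (log2 0.38 to 0.49), all but those without WT 7.35 mM replicate 3. The *SSP1* call was also lost with a replicate block (0.44, edgeR adjusted p = 0.0520), with DESeq2's size factors in edgeR, without a low-count filter, by DESeq2 and with the 6 libraries compared alone (0.43 to 0.44, adjusted p of 0.0521 to 0.0749).

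The members lower in *sis2*Δ at 7.35 mM KCl included both starters of the program. *IME2* had 5.86, 5.54 and 4.74 CPM in *sis2*Δ against 8.09, 8.79 and 7.34 CPM in WT (-0.58 ± 0.094 (SE), edgeR adjusted p = 0.000235). *IME1* had 5.73, 5.50 and 6.18 CPM in *sis2*Δ against 7.42, 8.26 and 8.90 CPM in WT (-0.50 ± 0.10 (SE), edgeR adjusted p = 0.00299). *SPS100* had 4.30, 4.66 and 3.82 CPM in *sis2*Δ against 6.73, 6.20 and 5.78 CPM in WT (-0.55 ± 0.12 (SE), edgeR adjusted p = 0.0046). For these 3 genes the strains did not overlap at 7.35 mM KCl. *SMA2*, which helps to assemble the prospore membrane, had 10.8, 9.91 and 9.91 CPM in *sis2*Δ against 13.4, 13.4 and 13.1 CPM in WT (-0.38 ± 0.075 (SE), edgeR adjusted p = 0.00169). *IME1*, *IME2*, *SPS100* and *SMA2* kept their calls without any 1 library. The call of *DIT1* (-0.29 ± 0.094 (SE), edgeR adjusted p = 0.0443) did not stand in 9 of 12 leave-one-out fits (log2 -0.30 to -0.21), all but those without *sis2*Δ 0.5 mM replicate 2, *sis2*Δ 7.35 mM replicate 2 or WT 0.5 mM replicate 3, and that of *SMK1* (-0.22 ± 0.062 (SE), edgeR adjusted p = 0.0226) did not stand without *sis2*Δ 7.35 mM replicate 2 or 3 or WT 7.35 mM replicate 1 or 2 (log2 -0.21 to -0.19). At 0.5 mM KCl none of the 6 passed: *IME1* was at -0.012 ± 0.10 (SE), *IME2* at -0.11 ± 0.10 (SE), *SPS100* at -0.03 ± 0.13 (SE), *SMA2* at -0.14 ± 0.075 (SE), *DIT1* at 0.005 ± 0.087 (SE) and *SMK1* at 0.037 ± 0.062 (SE).

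**Figure D5:**
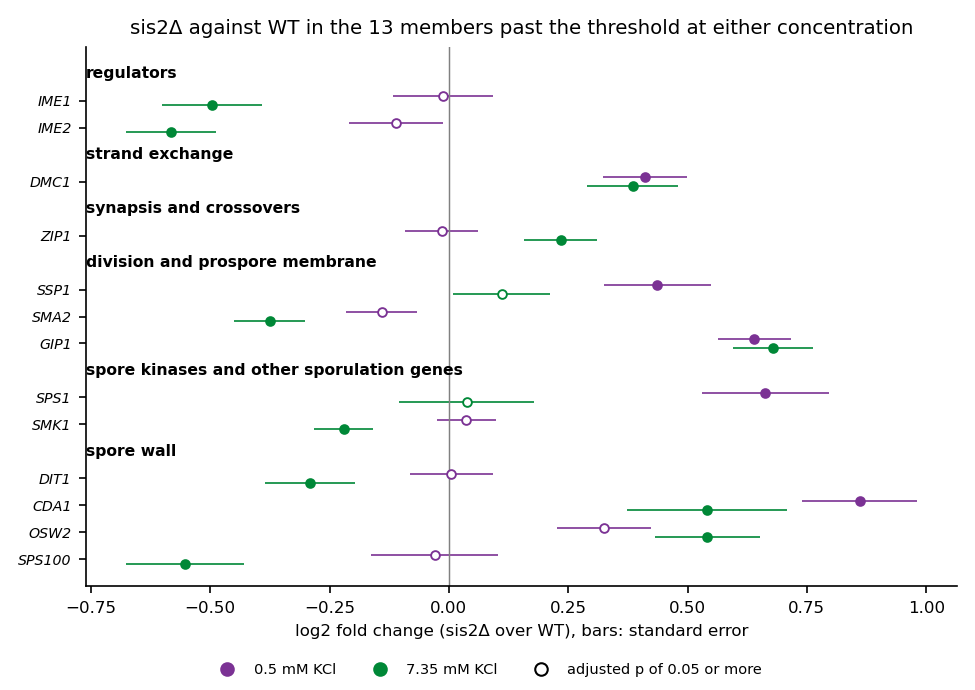
Log2 fold change of *sis2*Δ over WT (horizontal axis) of the 13 members past the threshold at either concentration, by class, at 0.5 mM KCl (purple) and 7.35 mM KCl (green); bars are standard errors and open points did not pass. At 7.35 mM KCl 5 filled points lie right of 0 and 6 left, and at 0.5 mM KCl 5 lie right and 0 left.

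Whether potassium acted differently in the strains was tested by the interaction, the log2 fold change of 0.5 over 7.35 mM KCl in *sis2*Δ minus that in WT. It passed for 0 of 54 members by edgeR and by DESeq2, where 2.74% of all features passed by edgeR, 1.7% higher and 1.03% lower, and 15 of 54 members had an unadjusted p under 0.05, against 996 of 6691 features. The median was 0.13 over the members and -0.0032 over all features. The smallest adjusted p were those of *IME2* (0.47 ± 0.14 (SE), edgeR adjusted p = 0.0662), *IME1* (0.48 ± 0.15 (SE), edgeR adjusted p = 0.0841) and *SPS1* (0.63 ± 0.19 (SE), edgeR adjusted p = 0.0914). *IME4* was at 0.046 ± 0.10 (SE) and *NDT80* at 0.038 ± 0.11 (SE). With a replicate block *IME2* passed (0.47, edgeR adjusted p = 0.0417). The count of 0 was 2 without *sis2*Δ 0.5 mM replicate 2 (*SPO11* and *SPS1*) and 1 without *sis2*Δ 7.35 mM replicate 1 (*IME2*), *sis2*Δ 7.35 mM replicate 3 (*SPS1*), WT 0.5 mM replicate 1 (*SPS100*) or WT 0.5 mM replicate 3 (*IME1*). The 11 members that passed in *sis2*Δ and not in WT for higher expression in 0.5 mM KCl are therefore not shown to differ between the strains.

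Further genes of the same program were read in the same comparisons. Of 33 other meiosis and spore genes, 18 were higher and 2 lower in 0.5 than in 7.35 mM KCl in *sis2*Δ (median 0.24), and 9 were higher and 5 lower in WT (median 0.023). Over all features 24.2% were higher and 21.7% lower in *sis2*Δ, and 24.1% higher and 23.2% lower in WT. *LDS2*, a lipid droplet protein of the spore wall, was at 1.17 ± 0.14 (SE), edgeR adjusted p = 5.91e-07, in *sis2*Δ and 0.80 ± 0.14 (SE), edgeR adjusted p = 7.17e-05, in WT. *MPC54*, of the meiotic spindle pole body, was at 0.81 ± 0.11 (SE) in *sis2*Δ and 0.60 ± 0.12 (SE) in WT. *GAS4*, which elongates glucan of the spore wall, was at 0.69 ± 0.10 (SE) in *sis2*Δ and 0.63 ± 0.10 (SE) in WT. *RRT8* was at 0.41 ± 0.076 (SE) in *sis2*Δ and 0.69 ± 0.077 (SE) in WT, and *PES4* at 0.87 ± 0.12 (SE) in *sis2*Δ and 0.57 ± 0.12 (SE) in WT. *LDS1* (1.12) and the synapsis gene *GMC2* (1.00) passed in *sis2*Δ. Against WT at 7.35 mM KCl, *sis2*Δ had 3 of the 33 higher, led by *GAS2* (0.43 ± 0.061 (SE)), and 3 lower, led by *GMC2* (-0.74 ± 0.22 (SE)). That was 18.2% of these genes, where 13.4% of all features changed. At 0.5 mM KCl 0 of the 33 passed, where 1.78% of all features changed.

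Of 9 repressor genes, 1 passed a test. Of the 6 genes of the Ume6 repressor (*UME6*, *SIN3*, *RPD3*, *UME1*, *ISW2* and *ITC1*), 1 passed in 1 comparison. This was *RPD3* in *sis2*Δ at 0.5 against 7.35 mM KCl (-0.14 ± 0.055 (SE), edgeR adjusted p = 0.0463). The 3 genes of the Sum1 repressor (*SUM1*, *HST1* and *RFM1*) passed in none of the 5 comparisons. The share of all features called was 45.9% in *sis2*Δ and 47.3% in WT for potassium. For the strains it was 13.4% at 7.35 mM KCl and 1.78% at 0.5 mM KCl, and for the interaction 2.74%. Of 11 regulators of the *IME1* promoter and the Rim101 pathway, 7 were higher and 0 lower in *sis2*Δ at 0.5 against 7.35 mM KCl, led by *RIM8* (0.39 ± 0.079 (SE)) and *MSN4* (0.37 ± 0.092 (SE)), where 45.9% of all features changed and 24.2% were higher. In WT 4 were higher, led by *RIM8* (0.38 ± 0.079 (SE)), and 2 lower, *SOK2* (-0.31 ± 0.066 (SE)), a repressor of *IME1* in glucose, and *RIM9* (-0.23 ± 0.085 (SE)), or 54.5% called, near the 47.3% of all features. *RME1*, which represses *IME1* in haploid cells, was at 0.30 ± 0.062 (SE) in *sis2*Δ and 0.19 ± 0.062 (SE) in WT. In *sis2*Δ against WT at 7.35 mM KCl *MSN4* (-0.39 ± 0.092 (SE)) and *SOK2* (-0.28 ± 0.066 (SE)) were lower. Of 7 kinases and mRNA methylation partners, *MCK1* fell in 0.5 mM KCl in both strains (-0.41 ± 0.065 (SE) in *sis2*Δ and -0.27 ± 0.065 (SE) in WT) and *KAR4* rose in WT (0.18 ± 0.06 (SE)).

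Genes next to the members were read in the same comparisons. *IRT1*, a noncoding RNA that is transcribed through the promoter of *IME1* and is known to repress it, ends 284 bases before *IME1* on the same strand. It averaged 18.7 CPM in *sis2*Δ at 0.5 mM KCl against 7.11 CPM at 7.35 mM KCl (1.40 ± 0.093 (SE), edgeR adjusted p = 8.88e-11), and in WT 13.9 CPM at 0.5 mM KCl against 6.30 CPM at 7.35 mM KCl (1.14 ± 0.10 (SE), edgeR adjusted p = 3.11e-09). *IRT1* thus rose in both strains, where *IME1* was at 0.35 in *sis2*Δ and -0.13 in WT. In *sis2*Δ against WT *IRT1* was at 0.43 ± 0.087 (SE), edgeR adjusted p = 0.00897, at 0.5 mM KCl and 0.18 ± 0.10 (SE), edgeR adjusted p = 0.26, at 7.35 mM KCl. *RME2* overlaps *IME4* and *RME3* overlaps *ZIP2* on the opposite strand. In 0.5 against 7.35 mM KCl *RME2* was at 0.14 ± 0.065 (SE), edgeR adjusted p = 0.073, in *sis2*Δ and 0.10 ± 0.064 (SE), edgeR adjusted p = 0.212, in WT, and *RME3* at 0.34 ± 0.11 (SE), edgeR adjusted p = 0.0153, in *sis2*Δ and 0.26 ± 0.11 (SE), edgeR adjusted p = 0.0554, in WT. *IME4* and *RME2* had means of 929 and 1022 counts per library, and *ZIP2* and *RME3* of 193 and 175 counts. In this comparison *IME4* was at 0.16 in *sis2*Δ and 0.12 in WT, and *ZIP2* at 0.38 and 0.29, near their partners. The libraries keep the strand of the RNA, but whether the counting used it is not given in the sources used here. The counts of *IME4* and *ZIP2* may hold reads of these partners, and sense and antisense RNA cannot be told apart in them.

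Coding genes next to members differed in their own changes, and only some of them are given here. In 0.5 against 7.35 mM KCl *MFB1*, upstream of *SPR28* on the same strand, was at 0.011 in *sis2*Δ and 0.053 in WT, and passed in neither. *UBC12*, upstream of *CDA1*, was at -0.09 in *sis2*Δ and -0.092 in WT and also passed in neither. *DPA10*, 322 bases downstream of *CDA1* on the opposite strand, was at 1.12 in *sis2*Δ (edgeR adjusted p = 0.0176) and 1.73 in WT (edgeR adjusted p = 0.0215) with a mean of 10.3 counts. *CDA1* itself was at 1.59 in *sis2*Δ and 1.27 in WT. *PDA1*, upstream of *DMC1*, was at 0.15 in *sis2*Δ (edgeR adjusted p = 0.0497) and 0.088 in WT (edgeR adjusted p = 0.245). *ISC10*, downstream of *DMC1*, was at 0.20 in *sis2*Δ (edgeR adjusted p = 0.0179) and 0.15 in WT (edgeR adjusted p = 0.0791). *YCL048W-A*, 437 bases upstream of *SPS22* on the same strand, was at 1.76 in *sis2*Δ and 1.80 in WT with a mean of 44.6 counts. *YHR139C-A*, 908 bases upstream of *SPS100* on the same strand, was at 0.28 in *sis2*Δ and -0.65 in WT with a mean of 58.1 counts. *SPT8*, upstream of *OSW2*, went the other way from *OSW2*, at -0.26 in *sis2*Δ and -0.52 in WT. *VTC2*, 224 bases downstream of *MSH4* on the opposite strand, was at 0.61 in *sis2*Δ and 0.25 in WT, beside 0.63 and 0.39 for *MSH4*. *STR3*, 530 bases downstream of *MND1* on the same strand, was at 1.47 in *sis2*Δ and 2.28 in WT, above *MND1* itself. *NMA1*, 323 bases upstream of *REC102* on the same strand, was at -0.16 in *sis2*Δ and -0.34 in WT, where *REC102* rose. The part of neighbouring transcription in the members' changes was not tested.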

How the data were processed

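RNAseq was performed on poly(A)-selected, strand-specific libraries of 4 groups, 3 biological replicates each. The authors deposited 1 table of estimated counts per feature, not normalized; 40.1% of the values are whole numbers. The submitters' processing notes name bcl2fastq, cutadapt 2.6, STAR 2.7.6a, featureCounts of Subread 1.6.2 and genome build R64; how reads shared between features were divided is not given in the sources used here.

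Counts were rounded, filtered with filterByExpr by group, scaled with TMM and tested with glmQLFit and glmQLFTest of edgeR 4.0.16 (R 4.3.3). All 12 libraries entered 1 fit with 4 group terms, as in the study's model, over 6691 features; 5 contrasts were tested, and adjusted by Benjamini-Hochberg (threshold 0.05). Standard errors (SE) are the log2 fold change over the square root of F. Libraries totalled 35451323 to 46543107 counts with a biological coefficient of variation of 5.70%, and a mean of 215 counts for the median member limits the precision of weak genes. P-values measure the spread between these cultures. Code was tested on simulated counts. Python 3.11.15, NumPy 2.4.6, pandas 2.3.3 and matplotlib 3.10.9 were used for tables and plots.

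Batch numbers in the labels match the replicate numbers, so the pairing of replicates comes from the labels. Deviations of same-numbered libraries from their group means correlated with a median of 0.0842 (18 pairs, -0.175 to 0.403, 7 above 0.1), against -0.048 for different numbers (36 pairs, -0.346 to 0.229, 8 above 0.1). The study's model has no batch term, so the replicate block was an alternative. The others were DESeq2 1.42.0, its size factors within edgeR, tests without a filter or with a minimum of 10 counts per library, fits on the 6 libraries compared, and leaving out each library in turn.

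Promoters and coding lengths came from the RefSeq R64 genome and annotation, the build of the files; 6073 features matched it. The members, gene lists and tests were chosen with earlier results of these data known. Named are the 4 regulators and the members past the threshold. Where over 12 pass, these are the 12 with the largest change whose groups do not overlap. Weaker calls are named here too, chosen after their values were seen. Also named are the 5 highest and 5 lowest by level, some neighbours of named members, and up to 5 genes per list and contrast.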

Additional observations from a re-analysis of the deposited data

Results flagged for a closer look

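*YSW1*, a sporulation gene from the list of other meiosis and spore genes, responded to potassium differently in the strains by a test of the difference itself. It had 13.1, 13.5 and 10.4 CPM in *sis2*Δ at 0.5 mM KCl against 10.5, 12.2 and 11.6 CPM at 7.35 mM KCl, and in WT 8.42, 10.6 and 9.91 CPM at 0.5 mM KCl against 15.5, 14.2 and 12.8 CPM at 7.35 mM KCl. The log2 fold change of 0.5 over 7.35 mM KCl was 0.11 in *sis2*Δ and -0.56 in WT, a difference of 0.66 ± 0.15 (SE), with an adjusted p of 0.0130 in edgeR's interaction test; the *sis2*Δ libraries overlapped and the WT libraries did not. It was the 1 gene of the members and lists with such a difference, where 2.74% of all features passed this test. The call of *YSW1* was not followed under the other settings or without single libraries. Groups of 3 are too small for a test of single outlying libraries.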

How the results depend on the processing

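No call of a member changed direction under any alternative. In *sis2*Δ against WT at 7.35 mM KCl, *DIT1* did not pass by DESeq2 (adjusted p = 0.0593). There *ZIP1* did not pass without a low-count filter (edgeR adjusted p = 0.0513). Of 11 members called in *sis2*Δ against WT at 7.35 mM KCl 6 stood in every fit, of 5 at 0.5 mM KCl 2, of 29 in 0.5 against 7.35 mM KCl in *sis2*Δ 21 and of 23 in WT 19; the cause of each loss was not tested. Leaving out 1 library, the number of members called was 6 to 12 in *sis2*Δ against WT at 7.35 mM KCl, 2 to 7 at 0.5 mM KCl, 24 to 30 in 0.5 against 7.35 mM KCl in *sis2*Δ, 21 to 25 in WT and 0 to 2 for the interaction. With the replicate block 1 member passed the interaction test, *IME2*, and the block changed the calls of *SSP1* in *sis2*Δ against WT at 0.5 mM KCl and of *IME4* in *sis2*Δ at 0.5 against 7.35 mM KCl; it changed no other call of the members called or of the 4 regulators. Values of uncalled regulators changed sign when 1 library was left out. *IME4* ranged from -0.050 to 0.0085 in *sis2*Δ against WT at 7.35 mM KCl and from -0.022 to 0.080 at 0.5 mM KCl, *IME1* from -0.074 to 0.11 at 0.5 mM KCl, *IME2* from -0.031 to 0.13 in 0.5 against 7.35 mM KCl in *sis2*Δ, and *NDT80* from -0.051 to 0.094 for the interaction. *SPO19*, *CDA2* and *SAE3* had as few as 5, 7 and 7.5 counts in a library, which limits what their tests can show. Over all features the interaction count of 183 was 111 without *sis2*Δ 0.5 mM replicate 1, 340 without *sis2*Δ 0.5 mM replicate 2 and 121 without WT 0.5 mM replicate 2.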

Other observations

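Some markers of mating type changed with potassium. *MFA1*, which encodes the a-factor pheromone, was higher in 0.5 than in 7.35 mM KCl by 1.25 ± 0.12 (SE) in *sis2*Δ and 1.36 ± 0.12 (SE) in WT (edgeR adjusted p = 3.40e-08 and 6.39e-09) on the log2 scale. *MF(ALPHA)1*, whose levels are given above, was higher by 2.28 ± 0.22 (SE) in *sis2*Δ and 2.87 ± 0.24 (SE) in WT (edgeR adjusted p = 4.55e-08 and 3.75e-09), and *STE3*, the a-factor receptor of MATalpha cells, by 0.87 ± 0.074 (SE) in *sis2*Δ and 0.83 ± 0.075 (SE) in WT (edgeR adjusted p = 5.14e-09 and 1.04e-08). Of the 5 MATalpha markers 3 were higher in *sis2*Δ and 4 in WT, and of the 7 MATa markers 3 were higher and 1, *STE6*, lower in *sis2*Δ and 4 higher in WT. The 8 haploid-specific genes went both ways: *STE18* was higher and *STE4*, *STE5* and *FAR1* lower in both strains, and *HO* was higher in WT. By the same test 45.9% of all features were called in *sis2*Δ, 24.2% higher and 21.7% lower. In WT 47.3% were called, 24.1% higher and 23.2% lower. The shares of MATa markers and of haploid-specific genes called were thus near the background.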
